A study of Mus musculus with 6 samples.

Results

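Solute carriers are the transport proteins that move amino acids, sugars, nucleosides, ions, vitamins and metabolites across membranes, and their genes carry symbols made of Slc, a family number, a and a member number. The genes described here were those of the deposited expression table whose symbol had this form and whose level averaged at least 1 RPKM (reads per kilobase of transcript, scaled to library size) over all 6 libraries. The table listed 11162 genes, 171 of them with such a symbol, and 141 passed the level threshold. Of these 141 genes, 137 were classed as transporter genes. The other 4 share only the form of the symbol: Slc9a3r1 encodes a scaffold protein, Slc4a1ap an adaptor protein and Slc7a6os a protein named for its place on the opposite strand of Slc7a6, and Slc2a4rg-ps is a pseudogene. By substrate, 16 of the genes were placed with amino acids and peptides, 8 with glucose and other sugars, 4 with nucleosides and 38 with inorganic ions. A further 37 belonged to family 25, most of them carriers of the inner mitochondrial membrane. Not all members are: Slc25a17, for example, sits in peroxisomes. The remaining transporter genes were 5 for nucleotide sugars and 29 for other organic solutes such as monocarboxylates, vitamins, choline and taurine. The form of the symbol left out families 35b to 35g and a few others, which are given separately.

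The libraries were made from naive CD8 T cells of mouse spleen, sorted as CD8+ CD44lo CD62Lhi Qa2hi cells that carried OT-I, a transgene for a T-cell receptor of a single specificity. All the mice had the genotype Nur77-GFP (Tg(Nr4a1-EGFP)GY139Gsat), in which green fluorescent protein is driven by regulatory sequence of Nr4a1, the gene of the immediate early factor Nur77, so the reporter marks recent signalling through the T-cell receptor. One group of 3 libraries came from Nur77-GFPhi cells (GFP-hi) and the other from Nur77-GFPlo cells (GFP-lo), and neither group received any treatment named in the labels. Replicate numbers here follow the order of deposition, since the labels give none, and only name the libraries. Whether the 3 libraries of a group came from separate mice is not given in the sources used here, nor are age and strain, so p-values measure only the spread between these libraries, which may in part be technical. Differences are log2 fold changes of RPKM + 1, GFP-hi over GFP-lo (log2 change below), which understate the change of genes with low RPKM. They were tested with limma over all 9351 genes that reached the same level threshold, and a gene was called where its Benjamini-Hochberg adjusted p was under 0.05.

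T cells take up amino acids, glucose and nucleosides through a limited set of solute carriers. Slc7a5 and its heavy chain Slc3a2 exchange large neutral amino acids, Slc1a5 takes up glutamine and other neutral amino acids, and Slc2a1 and Slc2a3 are facilitative glucose transporters. After strong stimulation through the receptor, many of these nutrient transporters are induced as cells begin to grow, and naive cells hold them at lower levels. Within the cell, family 25 links the cytosol to mitochondrial metabolism, with adenine nucleotide translocases exchanging ADP for ATP.

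The 6 libraries held 26170000 to 35940000 reads as recovered from the smallest steps of the values, so that a transcript of 1 kilobase at 1 RPKM rested on about 26.17 to 35.94 reads. All 5 CD8 T cell markers were listed, with a summed level of 1545.7 to 1647.8 RPKM, and none of 3 CD4 T cell or 2 natural killer cell markers was listed. Of 4 B cell markers Ms4a1 and Cd79b were listed (summed 12.5 to 14.2 RPKM in GFP-hi, 10.9 to 11.3 in GFP-lo), of 5 erythroid markers Car2 and Hba-a1 (4.36 to 5.74 against 2.38 to 3.55), and of 5 myeloid markers Itgam (0.16 to 0.431 over all libraries). Of 4 epithelial markers only Epcam was listed, at 0.496 to 1.002 RPKM in GFP-hi against 0.37 to 0.613 in GFP-lo libraries. The part of these cells in the differences below was not tested. The heat-shock gene Hspa1a stood at 1100 and 1234 RPKM in replicate 2 of GFP-hi and of GFP-lo, against 152 to 235 in the other 4 libraries. In bulk samples, fewer cells expressing a gene and less RNA per cell cannot be told apart.

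Few solute carrier genes differed between GFP-hi and GFP-lo cells. Of the 141 genes 7 were called (4.96%), against 3.95% of all genes tested, so the share lay near the background. Slc29a1, Slc19a1 and Slc6a6 were higher in GFP-hi (2.13% of the genes, against 2.46% of all genes tested). Slc6a19, Slc28a2b, Slc16a5 and Slc49a4 were lower (2.84%, against 1.49%). At an unadjusted p under 0.05, 13 genes were higher (9.22%, against 12.9% of all genes tested) and 17 lower (12.1%, against 7.3%). With trimmed mean scaling 10 were higher (7.09%, against 10.1%) and 19 lower (13.5%, against 9.61%). In the 4 libraries with low Hspa1a and Hspa1b, 6 were higher (4.26%, against 8.97%) and 10 lower (7.09%, against 6.5%). In 18 genes all 3 GFP-hi libraries lay above all 3 GFP-lo libraries (12.8%, against 17.1%) and in 19 they lay below (13.5%, against 9.84%). Log2 changes were positive in 69 genes (48.9%, against 55.5%) and negative in 72, with a median of -0.0033, against 0.0179 over all genes tested. The median absolute log2 change was 0.0883, against 0.0859 over all genes tested. Within the groups the genes spread as all genes did, with a median SD of 0.0896 on the log2 scale against 0.0897.

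The 95% interval of the log2 change lay within ±0.5 for 130 of the 141 genes, against 8502 of the 9351 genes tested. It lay within ±0.25 for 63, against 3990. The median half-width of the interval was 0.169, against 0.171 over all genes tested, so the differences were bounded about as closely as those of other genes. The summed level of the 141 genes was 1812.5, 1835.2 and 1832.8 RPKM in the GFP-hi libraries and 1906.4, 1858.5 and 1861.9 RPKM in the GFP-lo libraries. Every GFP-hi sum was below every GFP-lo sum, and the gap of the nucleoside class alone was larger than that of all genes: its sum was 154.66, 164.37 and 186.79 RPKM in GFP-hi against 232.55, 230.58 and 260.46 RPKM in GFP-lo libraries. Levels of single genes ran from 1.01 RPKM (Slc22a13) to 143.4 RPKM (Slc28a2b), with a median of 5.75 RPKM against 8.72 RPKM over all genes tested.

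**Figure D1:**
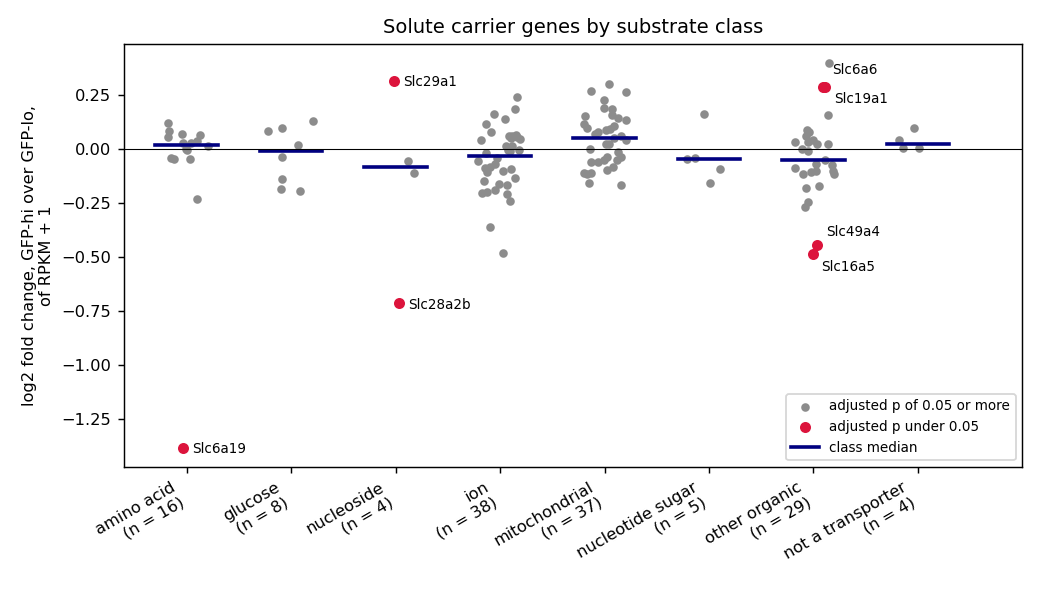
Log2 fold change (GFP-hi over GFP-lo, of RPKM + 1) of each solute carrier gene, 1 point a gene, by substrate class, with the class median as a line and the 7 called genes in red. Most points lie within 0.25 of 0, and Slc6a19 at -1.38 and Slc28a2b at -0.71 stand apart from their classes.

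The largest difference of any solute carrier was that of Slc6a19 (Entrez 74338), which encodes the sodium-coupled transporter of neutral amino acids known best from the brush border of small intestine and kidney. Its RPKM was 3.51, 2.93 and 3.59 in the 3 GFP-hi libraries and 10.8, 9.32 and 10.8 in the 3 GFP-lo libraries. The groups were far apart, and the lowest GFP-lo library lay well above the highest GFP-hi library. Group means were 3.35 ± 0.362 and 10.3 ± 0.874 RPKM (SD, n = 3), a 3.09-fold higher level in GFP-lo. Slc6a19 fell in GFP-hi by 1.38 on the log2 scale (SE 0.086, 95% interval -1.58 to -1.18, limma adjusted p = 0.00051). It was called in all 19 alternative fits, among them the 6 without 1 library, with limma adjusted p from 5.3e-05 to 0.0054 and log2 changes from -1.60 to -1.28.

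The gene lies on chromosome 13 (73679745 to 73700780, mm10, GRCm38.p6 in RefSeq). Its promoter window in the RefSeq table, from 250 bases before a transcript start to 50 after, is shown because this gene changed most. It is chr13:73692587-73692886 on the minus strand, at a start that lies inside the gene and not at its outer end, and which start these cells use was not measured. It held no match on either strand to the motifs searched, so no part is in capitals:
Slc6a19: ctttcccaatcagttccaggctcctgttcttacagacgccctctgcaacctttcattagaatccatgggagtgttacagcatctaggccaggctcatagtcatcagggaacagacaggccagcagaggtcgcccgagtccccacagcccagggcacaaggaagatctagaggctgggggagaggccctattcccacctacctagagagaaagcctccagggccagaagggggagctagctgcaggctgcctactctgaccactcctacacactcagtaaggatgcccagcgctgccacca

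The other 15 amino acid and peptide transporter genes gave no call, and apart from Slc38a7 none had an unadjusted p under 0.05. Slc38a7, a lysosomal glutamine transporter named here after its values were seen, had 3.07 ± 0.0684 against 3.80 ± 0.652 RPKM (SD, n = 3) and a log2 change of -0.23 (limma adjusted p = 0.23). The most abundant gene of the class was Slc1a5, with 90.1, 84.6 and 89.2 RPKM in GFP-hi against 83.5, 81.8 and 86.7 RPKM in GFP-lo libraries. These values overlapped, and its log2 change of 0.07 had a 95% interval from -0.06 to 0.19 (limma adjusted p = 0.55). Slc7a5, the light chain that exchanges leucine and other large amino acids, had 21.04, 16.3 and 21.2 RPKM against 19.8, 17.4 and 19.5 RPKM. Replicate 2 was the lowest library in both groups, and the log2 change was 0.04 (95% interval -0.20 to 0.28, limma adjusted p = 0.88).

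Slc3a2, its heavy chain, had 32.5, 35.6 and 30.1 RPKM in GFP-hi against 32.0, 31.7 and 29.6 RPKM in GFP-lo libraries, with a log2 change of 0.07 (95% interval -0.10 to 0.23). Slc7a6, a second light chain that pairs with Slc3a2, differed by 0.01 (-0.15 to 0.17). The sodium-coupled glutamine and alanine transporters Slc38a1 and Slc38a2 differed by 0.03 (-0.11 to 0.16) and -0.04 (-0.28 to 0.19). The summed level of all 16 genes was 246.56 ± 6.11 RPKM in GFP-hi against 248.12 ± 6.08 RPKM in GFP-lo (SD, n = 3). For Slc1a5, Slc7a5, Slc3a2, Slc7a6, Slc38a1 and Slc38a2, the intervals leave room only for small differences, the widest reaching 0.28 in either direction. This does not extend to the whole class, in which Slc6a19 had a log2 change of -1.38 and the interval of Slc38a7 reached -0.45.

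**Figure D2:**
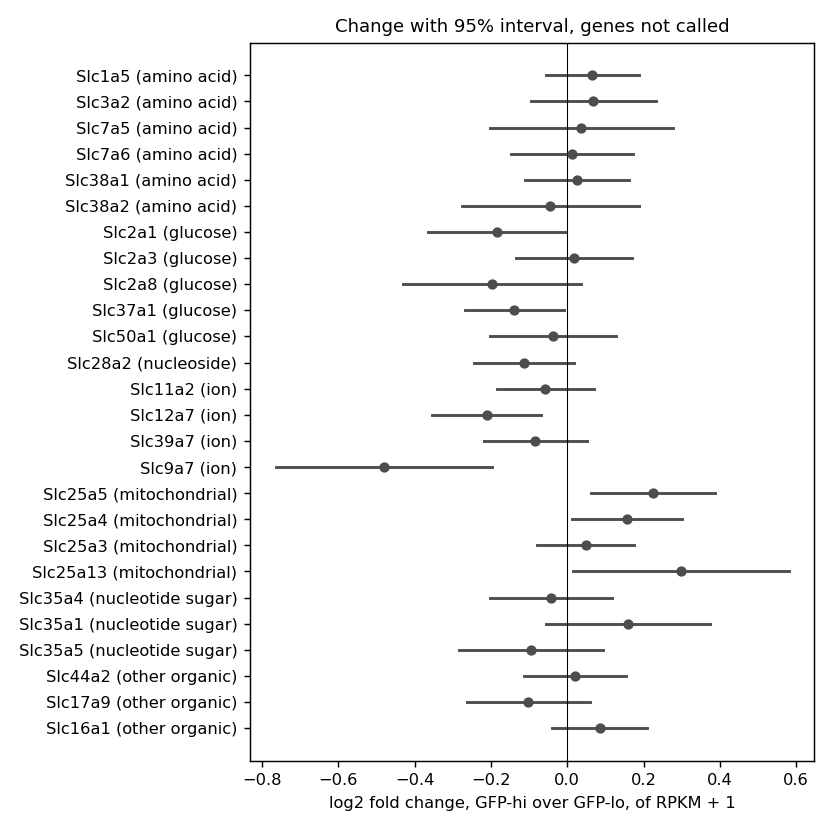
Log2 fold change (point) and 95% interval (line) of 26 solute carrier genes that were not called, with their class in parentheses. The intervals of Slc1a5, Slc3a2, Slc7a5, Slc2a1 and Slc2a3 all lie between -0.37 and 0.28. Those of Slc2a1, Slc37a1, Slc12a7 and Slc9a7 lie wholly below 0, and those of Slc25a13, Slc25a4 and Slc25a5 wholly above it.

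Among the 8 sugar transporter genes none was called. Their log2 changes were positive in 4 (50%, against 55.5% of all genes tested) and negative in 4, with a median of -0.01. Slc2a1, the ubiquitous glucose transporter, had 10.2, 11.1 and 10.1 RPKM in GFP-hi against 13.3, 11.97 and 10.9 RPKM in GFP-lo libraries. The groups overlapped, with GFP-lo replicate 3 under GFP-hi replicate 2, and the log2 change was -0.19 (95% interval -0.37 to -0.01, limma adjusted p = 0.23). Slc2a3, the high-affinity glucose transporter of lymphocytes and neurons, had 11.8, 10.8 and 10.7 RPKM against 11.7, 10.3 and 10.8 RPKM and a log2 change of 0.02 (-0.14 to 0.17). The sign of the Slc2a3 value turned with trimmed mean scaling and in some fits without 1 library. Slc37a1, a sugar phosphate exchanger of the endoplasmic reticulum, had 11.2, 11.002 and 11.4 RPKM against 13.2, 11.99 and 12.2 RPKM. All 3 GFP-hi values were below the GFP-lo values, but its log2 change of -0.14 did not pass (limma adjusted p = 0.22). Slc37a3, of the same family, went the other way with separate groups (4.95 ± 0.0453 against 4.62 ± 0.154 RPKM, log2 change 0.08, limma adjusted p = 0.47). It is named here after its values were seen, as are Slc37a4 (0.13) and Slc45a4 (0.10). Slc50a1, a sugar efflux transporter and the most abundant gene of the class, differed by -0.04 (33.0 ± 3.05 against 33.8 ± 0.791 RPKM, SD, n = 3), and Slc2a8, an intracellular sugar transporter, by -0.20 (limma adjusted p = 0.33).

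Nucleoside transporters were the class with the highest single level, and their 2 calls went in opposite directions. Families 28 and 29 work differently: Slc28 proteins pump nucleosides into the cell against their gradient together with sodium, and Slc29 proteins let them equilibrate. Slc28a2b (Entrez 381417), a mouse paralogue of the purine nucleoside transporter gene Slc28a2, had 95.9, 105 and 124 RPKM in GFP-hi against 168, 171 and 196 RPKM in GFP-lo libraries. The groups were separate, and replicate 3 was the highest library in each. Group means were 109 ± 14.5 and 178 ± 15.3 RPKM (SD, n = 3), 1.64-fold higher in GFP-lo. Slc28a2b fell in GFP-hi by 0.71 on the log2 scale (SE 0.102, 95% interval -0.95 to -0.48, limma adjusted p = 0.0098). It was called in 18 of 19 alternative fits, including all 6 without 1 library, and missed the threshold in the 4 libraries with low Hspa1a and Hspa1b (-0.73, limma adjusted p = 0.085).

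Its neighbour Slc28a2 (Entrez 269346) showed a smaller difference. It had 48.8, 50.1 and 52.5 RPKM in GFP-hi against 56.5, 52.0 and 55.6 RPKM in GFP-lo libraries, and the groups overlapped at GFP-hi replicate 3 and GFP-lo replicate 2. The log2 change was -0.11 (SE 0.056, 95% interval -0.24 to 0.02, limma adjusted p = 0.31). Whether the changes of the 2 genes differ from each other was not tested. Both lie on chromosome 2 (mm10), Slc28a2 at 122426357 to 122461152 and Slc28a2b at 122484941 to 122528040.

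The transcripts of the pair, 3911 and 3740 bases in GENCODE M21, were 96% identical over 3739 aligned bases. Of all stretches of 50 bases in the Slc28a2b transcript, 40.6% also occurred in Slc28a2, and of stretches of 100 bases 21.5%. Reads from shared stretches can be assigned to either copy, and how the counting treated them is not given in the sources used here, so the value of each copy is uncertain. The coding parts, 1980 bases each, differed at 108 bases, which were not spread evenly. The 60 coding bases from 408 to 467, counted from the A of the start codon, held 29 of the differences and are shown as the stretch that best tells the copies apart, with the differing bases in capitals:
Slc28a2: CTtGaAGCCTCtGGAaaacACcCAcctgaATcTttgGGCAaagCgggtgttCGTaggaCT
Slc28a2b: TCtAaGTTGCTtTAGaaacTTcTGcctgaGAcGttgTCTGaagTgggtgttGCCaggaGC

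Slc29a1 (Entrez 63959; chromosome 17, 45585200 to 45599618), the equilibrative nucleoside transporter of the plasma membrane, went the other way. It had 6.34, 6.29 and 6.20 RPKM in GFP-hi against 4.54, 4.95 and 5.09 RPKM in GFP-lo libraries. The GFP-hi values were close together and all above the GFP-lo values. Group means were 6.28 ± 0.0682 and 4.86 ± 0.289 RPKM (SD, n = 3), a 1.29-fold rise (log2 change 0.31, SE 0.061, limma adjusted p = 0.030). The call ended when any 1 library was left out, with log2 changes of 0.27 to 0.34 and limma adjusted p of 0.057 to 0.11. It also ended with the trend with transcript length removed (0.27, limma adjusted p = 0.056), in the 4 libraries with low Hspa1a and Hspa1b (0.32, 0.14) and without GFP-hi replicate 2 and GFP-lo replicate 1, where nasal receptor RNA was lowest (0.27, 0.058). Slc29a3, a lysosomal member of the family, had 3.27 ± 0.631 against 3.43 ± 0.463 RPKM and was not called. Without Slc28a2b, the median log2 change of the class was -0.06 over 3 genes.

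**Figure D3:**
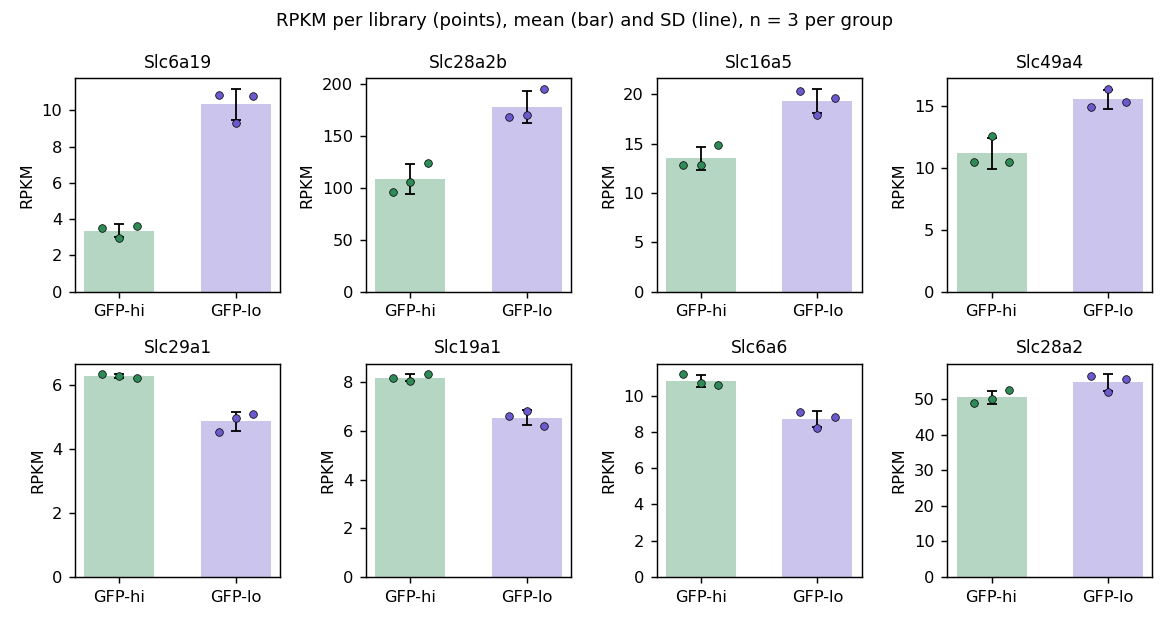
RPKM in each library (points), with the group mean (bar) and SD (line), for the 7 called solute carrier genes and Slc28a2. Slc6a19, Slc28a2b, Slc16a5 and Slc49a4 are higher in all 3 GFP-lo libraries, and Slc29a1, Slc19a1 and Slc6a6 in all 3 GFP-hi libraries, while the Slc28a2 values overlap.

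Among the 29 genes for other organic solutes, Slc16a5, Slc49a4, Slc19a1 and Slc6a6 were called (13.8% of the class, against 3.95% of all genes tested). Leaving out 1 library brought the number down to between 0 and 2. Calls over all genes tested fell in these fits too, from 230 higher and 139 lower with all libraries. The fewest were 71 and 62, without GFP-lo replicate 2, and the most 187 and 128, without GFP-hi replicate 2. Slc16a5 (Entrez 217316; chromosome 11, 115462405 to 115474398) belongs to the monocarboxylate transporter family. It had 12.8, 12.8 and 14.9 RPKM in GFP-hi against 20.4, 17.9 and 19.7 RPKM in GFP-lo libraries. The groups were separate, and the means were 13.5 ± 1.17 and 19.3 ± 1.26 RPKM (SD, n = 3). Slc16a5 fell in GFP-hi by 0.49 on the log2 scale (SE 0.076, limma adjusted p = 0.014). Leaving out GFP-hi replicate 1 (limma adjusted p = 0.059), GFP-lo replicate 1 (0.052) or GFP-lo replicate 3 (0.061) ended the call, with log2 changes of -0.55 to -0.45 over the 6 such fits. It also ended in the 4 libraries with low Hspa1a and Hspa1b (-0.51, limma adjusted p = 0.062). Slc16a1, the lactate transporter of the same family, was not called: it had overlapping values of 30.6, 32.2 and 29.9 RPKM against 30.01, 29.2 and 28.04 RPKM and a log2 change of 0.08 (95% interval -0.04 to 0.21, limma adjusted p = 0.44).

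Slc49a4 (Entrez 224132; chromosome 16, 35694062 to 35769370) encodes a protein of the lysosomal membrane. Its RPKM was 10.5, 12.6 and 10.5 in GFP-hi and 14.9, 16.4 and 15.3 in GFP-lo libraries, with replicate 2 the highest in both groups and no overlap. Slc49a4 fell in GFP-hi by 0.45 on the log2 scale (SE 0.080, limma adjusted p = 0.023), from 15.6 ± 0.774 to 11.2 ± 1.23 RPKM (SD, n = 3). Only leaving out GFP-hi replicate 2 kept the call (limma adjusted p = 0.0068), and leaving out any other library gave limma adjusted p of 0.060 to 0.095. Its promoter window, chr16:35769321-35769620 on the minus strand, is shown because it was the only window of a called gene with 2 of the motifs searched. An E-box (CACGTG, bound by Myc and related factors) begins 207 bases and an ATF4 composite site (TGATGNAA) 203 bases before the start, and the overlapping matches are in capitals:
Slc49a4: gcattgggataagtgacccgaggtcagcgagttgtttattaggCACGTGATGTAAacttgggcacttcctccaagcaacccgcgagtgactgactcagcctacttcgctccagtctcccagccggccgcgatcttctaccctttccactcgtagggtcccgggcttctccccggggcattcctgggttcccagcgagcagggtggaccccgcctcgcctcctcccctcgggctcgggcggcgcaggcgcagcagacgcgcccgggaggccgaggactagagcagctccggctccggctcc

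Slc19a1 (Entrez 20509; chromosome 10, 77032269 to 77050432), the reduced folate carrier, had 8.18, 8.03 and 8.34 RPKM in GFP-hi against 6.60, 6.83 and 6.21 RPKM in GFP-lo libraries. All GFP-hi values were above the GFP-lo values, and the gene rose 1.25-fold (log2 change 0.28, SE 0.058, limma adjusted p = 0.036). Slc6a6 (Entrez 21366; chromosome 6, 91684048 to 91759063), the taurine transporter, had 11.2, 10.7 and 10.6 RPKM against 9.09, 8.22 and 8.83 RPKM. Again the groups were separate, and it rose 1.24-fold (log2 change 0.29, SE 0.059, limma adjusted p = 0.038). Neither call held without 1 library, whichever it was: limma adjusted p ran from 0.052 to 0.14 for Slc19a1 and from 0.057 to 0.15 for Slc6a6, with log2 changes of 0.25 to 0.31 for both. Slc19a1 also missed the threshold with trimmed mean scaling (0.26, limma adjusted p = 0.052) and without GFP-hi replicate 2 and GFP-lo replicate 1 (0.30, 0.056). In the 4 libraries with low Hspa1a and Hspa1b both missed it (0.32, limma adjusted p = 0.10, for Slc19a1 and 0.26, 0.15, for Slc6a6).

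The other members of the class were not called. Slc44a2, a choline transporter-like protein and its most abundant gene, had 103, 101 and 101 RPKM in GFP-hi against 107, 97.5 and 96.0 RPKM in GFP-lo libraries, with a log2 change of 0.02 (95% interval -0.11 to 0.15) whose sign turned with quantile normalization and trimmed mean scaling. Slc17a9, the vesicular nucleotide transporter, differed by -0.10 (35.3 ± 1.36 against 38.0 ± 3.24 RPKM, SD, n = 3). Slc46a3, a lysosomal transporter singled out after its values were seen, came closest to the threshold, with 3.86, 3.67 and 3.98 RPKM against 4.71, 4.73 and 5.06 RPKM and a log2 change of -0.27 (limma adjusted p = 0.054).

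No ion transporter gene was called among 38. At an unadjusted p under 0.05, 7 were lower in GFP-hi (18.4%, against 7.3% of all genes tested) and 2 higher (5.26%, against 12.9%). With trimmed mean scaling 8 were lower (21.1%, against 9.61%) and 2 higher (5.26%, against 10.1%). In the 4 libraries with low Hspa1a and Hspa1b, 3 were lower (7.89%, against 6.5%) and 1 higher (2.63%, against 8.97%). With all 6 libraries the median log2 change was -0.03, with 15 positive (39.5%, against 55.5% of all genes tested) and 23 negative values. The lower genes with an adjusted p closest to the threshold were Slc39a4, Slc9a7 and Slc12a7. Slc9a7, a sodium/proton exchanger of the Golgi and the gene with the largest difference of the class, had 1.31, 1.22 and 2.04 RPKM in GFP-hi against 2.50, 2.28 and 2.68 RPKM in GFP-lo libraries. GFP-hi replicate 3 lay apart from the other GFP-hi values, and without it the log2 change of -0.48 (SE 0.123, limma adjusted p = 0.075) became -0.62 and passed (limma adjusted p = 0.019). Of 18 alternative fits this was the only 1 in which Slc9a7 passed. Leaving out any other library gave limma adjusted p of 0.15 to 0.21. Slc12a7, a potassium-chloride cotransporter and the most abundant ion transporter, had 47.3, 43.5 and 44.5 RPKM against 55.4, 52.5 and 49.2 RPKM. The groups were separate, and its log2 change was -0.21 (95% interval -0.35 to -0.07, limma adjusted p = 0.11).

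The remaining ion genes with an unadjusted p under 0.05, named here after their values were seen, were Slc20a1, Slc31a2, Slc39a11 and Slc39a14 among the lower and Slc30a6 among the higher. Slc20a1, a sodium-coupled phosphate importer, had 16.02 ± 0.649 against 18.6 ± 2.11 RPKM and a log2 change of -0.20. Slc31a2, which regulates copper uptake, had 3.85 ± 0.463 against 4.58 ± 0.348 RPKM and a log2 change of -0.21, and the copper importer Slc31a1 itself differed by 0.05 (2.88 ± 0.0267 against 2.74 ± 0.0783 RPKM). Slc30a6, a zinc exporter of the Golgi, had 5.997 ± 0.170 against 5.17 ± 0.209 RPKM and a log2 change of 0.18. Their limma adjusted p ran from 0.13 (Slc30a6) to 0.23 (Slc31a2). Of the other 4 chloride-coupled genes of family 12, Slc12a2 differed by -0.24 and Slc12a4 by 0.16, so the family did not point one way.

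Zinc transporters made up 15 of the ion genes, with 9 of family 39, which brings zinc into the cytosol, and 6 of family 30, which removes it. Their median log2 changes were -0.10 and -0.02. Slc39a6 and Slc39a4 pointed in opposite directions and are named here after their values were seen. Slc39a6 had 20.4, 19.1 and 19.1 RPKM in GFP-hi against 16.8, 16.1 and 16.2 RPKM in GFP-lo libraries, a log2 change of 0.24 (limma adjusted p = 0.052). Slc39a4 had 1.30, 1.59 and 1.55 RPKM against 2.21, 1.97 and 2.37 RPKM, a log2 change of -0.36 (limma adjusted p = 0.056). In both genes the groups were separate and the adjusted p just missed the threshold. Slc39a7, the zinc transporter of the endoplasmic reticulum and the most abundant of the family, differed by -0.08 (25.5 ± 0.337 against 27.2 ± 1.71 RPKM, SD, n = 3). Slc11a2, the divalent metal transporter that carries iron, had 20.7 ± 0.423 against 21.6 ± 1.01 RPKM and a log2 change of -0.06 (95% interval -0.18 to 0.07).

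The mitochondrial carriers had no call either. Of 37 genes, 23 had a positive log2 change (62.2%, against 55.5% of all genes tested), with a median of 0.05. With trimmed mean scaling 20 did (54.1%, against 47.6%), so the share lay near the background in both. At an unadjusted p under 0.05, 8 were higher (21.6%, against 12.9% of all genes tested) and 1 lower (2.7%, against 7.3%), and in 9 genes all GFP-hi values were above the GFP-lo values (24.3%, against 17.1%). With trimmed mean scaling the higher genes fell in number to 5 (13.5%, against 10.1%), and with the trend of values with transcript length removed to 3 (8.11%, against 10.2%). In the 4 libraries with low Hspa1a and Hspa1b they numbered 2 (5.41%, against 8.97%). The summed level was 474, 486 and 480 RPKM in GFP-hi against 435, 449 and 437 RPKM in GFP-lo libraries.

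Slc25a5, the main adenine nucleotide translocase of dividing cells, held the largest part of that difference, with 151, 135 and 154 RPKM in GFP-hi against 118, 131 and 128 RPKM in GFP-lo libraries. The lowest GFP-hi value was just above the highest GFP-lo value, and its log2 change was 0.22 (SE 0.070, 95% interval 0.06 to 0.39, limma adjusted p = 0.13). Slc25a4, the translocase of heart and muscle, had 51.0, 58.3 and 52.7 RPKM against 47.1, 49.7 and 48.0 RPKM, a log2 change of 0.16 (limma adjusted p = 0.22). Slc25a3, the phosphate carrier, had 44.1 ± 2.24 against 42.6 ± 0.707 RPKM (SD, n = 3) and a log2 change of 0.05 (95% interval -0.08 to 0.17). Slc25a13, an aspartate/glutamate carrier, had the largest log2 change of the family at 0.30 (1.94 ± 0.271 against 1.40 ± 0.370 RPKM), but its groups overlapped (limma adjusted p = 0.23). Without Slc25a5 the median of the other 36 genes was 0.05.

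The other carriers of family 25 behind these counts are named here after their values were seen. The higher ones were Slc25a14 (0.26), Slc25a23 (0.27), Slc25a39 (0.18), Slc25a45 (0.19) and the peroxisomal Slc25a17 (0.11), each with a mean level of at most 16.6 RPKM in either group and limma adjusted p from 0.12 to 0.24. Slc25a23, which exchanges ATP-magnesium for phosphate, had 3.02, 2.78 and 2.94 RPKM in GFP-hi against 2.58, 1.99 and 2.22 RPKM in GFP-lo libraries, with separate groups. Slc25a39, the carrier that brings glutathione into mitochondria, had 11.1 ± 0.594 against 9.66 ± 0.539 RPKM (SD, n = 3). The lower one was Slc25a28, an iron importer of mitochondria, with 5.36 ± 0.382 against 6.14 ± 0.286 RPKM and a log2 change of -0.17 (limma adjusted p = 0.22). Its relative Slc25a37, close to the level threshold, differed by -0.06 (0.987 ± 0.0796 against 1.08 ± 0.0153 RPKM). The mitochondrial folate carrier Slc25a32 differed by -0.10 (6.96 ± 0.411 against 7.53 ± 0.381 RPKM), against the rise of the folate carrier Slc19a1 of the plasma membrane, and whether these changes differ was not tested.

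**Figure D4:**
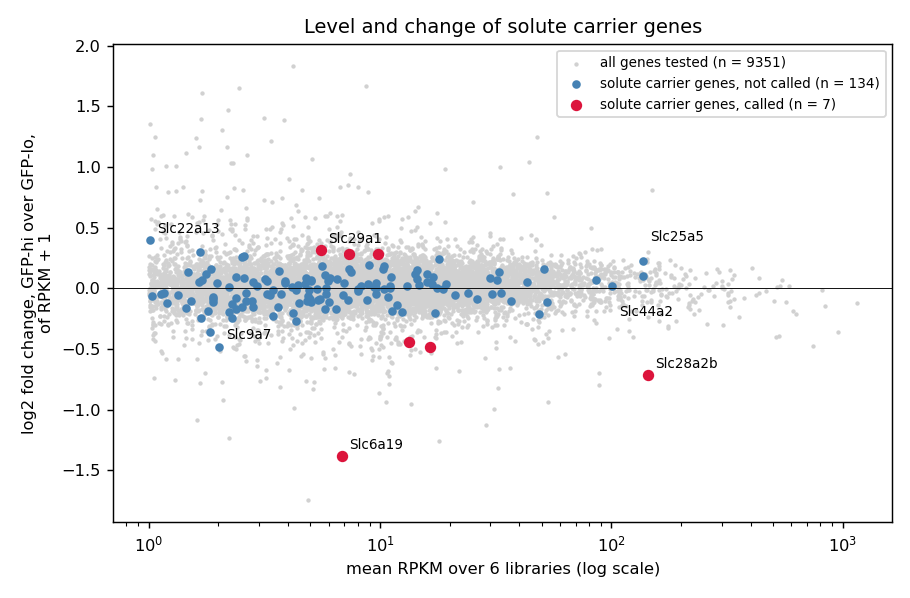
Log2 fold change (GFP-hi over GFP-lo, of RPKM + 1) against mean RPKM over the 6 libraries (log scale) for all 9351 genes tested (grey), solute carrier genes not called (blue) and called (red). The called genes span mean levels from about 5.57 RPKM (Slc29a1) to 143.4 RPKM (Slc28a2b).

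None of the 5 nucleotide sugar transporter genes, which supply the Golgi for glycosylation, was called or had an unadjusted p under 0.05. Slc35a4 was the most abundant (23.6 ± 0.418 against 24.4 ± 2.23 RPKM, SD, n = 3, log2 change -0.04), followed by Slc35a1, the sialic acid donor transporter (0.16), and Slc35a5 (-0.09). The 4 genes that are no transporters gave no call. Slc9a3r1, which anchors transporters to the cytoskeleton, was the most abundant of them and had 140, 149 and 138 RPKM in GFP-hi against 137, 132 and 129 RPKM in GFP-lo libraries (log2 change 0.10, limma adjusted p = 0.38). The log2 changes of Slc7a6os and Slc2a4rg-ps were 0.00 and 0.04, and that of Slc7a6os changed sign with each other scaling.

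The 3 related lists gave no call either, where 3.95% of all genes tested were called. Of 18 solute carrier genes outside the symbol form (families 35b to 35g, 8b, 9b and Slco), 16 were tested, with 0 higher and 0 lower and a median log2 change of 0.03. Of 14 transporters named otherwise, such as the mitochondrial pyruvate carriers Mpc1 and Mpc2, 11 were tested with a median of 0.0032. Of 18 partners and regulators 15 were tested with a median of 0.01. At an unadjusted p under 0.05 these lists held Slc35b1 (0.14), Slc35f2 (0.18), Slc35g1 (0.34), Slco3a1 (-0.21), Mpc2 (0.18), Stk39 (0.22) and Txnip (-0.18), named here after their values were seen. Of all genes tested, 12.9% were higher and 7.3% lower at that threshold. Txnip, which promotes the internalization of glucose transporters, had 90.7, 91.9 and 93.8 RPKM in GFP-hi against 105, 101 and 107 RPKM in GFP-lo libraries (95% interval -0.29 to -0.06, limma adjusted p = 0.094). Myc and Atf4, which act on many transporter genes, differed by 0.06 (95% interval -0.13 to 0.24) and -0.06 (-0.30 to 0.18).

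Promoter windows from RefSeq (GRCm38.p6) were found for 104 of the 141 genes, 139 windows in all because some genes have several starts. The E-box CACGTG occurred in 24 of these windows (17.3%), against 10.9% of windows of all genes tested and 7.15% of all windows. Of the 7 called genes 5 had a window, and the E-box was in 1 of the 8 windows of Slc29a1 and in the only window of Slc49a4. The Nur77 site AAAGGTCA occurred in 0 of the 139 windows, against 0.991% of windows of tested genes. The ETS site CCGGAAGT was in 4.32% (against 9.77%), the cyclic AMP response element TGACGTCA in 2.16% (against 3.35%) and the ATF4 composite TGATGNAA in 2.88% (against 2.05%). Both strands were searched, and a match describes the letters only.

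**Figure D5:**
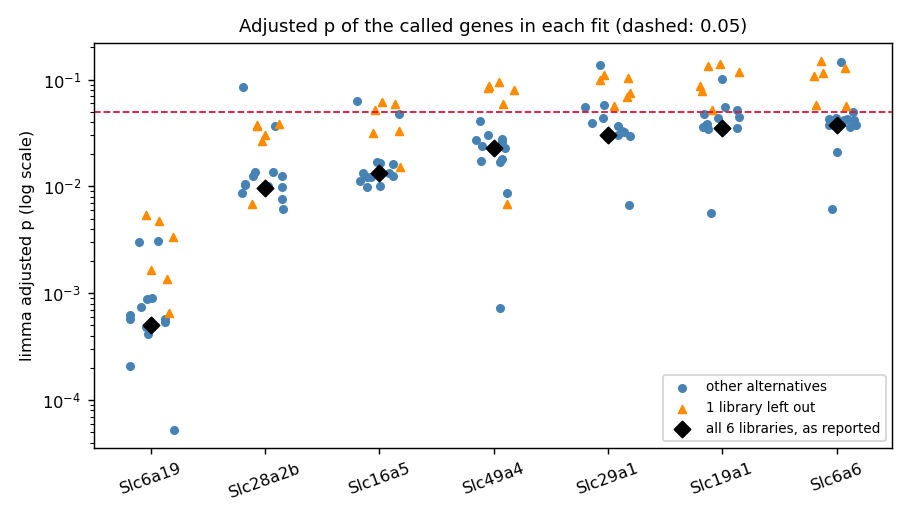
Limma adjusted p (log scale) of the 7 called genes with all 6 libraries (diamond), with 1 library left out (triangles) and in the other alternative fits (circles), with 0.05 as a dashed line. All points of Slc6a19 lie below the line, Slc28a2b has 1 point above it, and all triangles of Slc29a1, Slc19a1 and Slc6a6 lie above it.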

How the data were processed

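RNA of 6 sorted T-cell samples was measured with SMART-seq v4 cDNA and Nextera XT libraries, per the labels' protocols. Values deposited by the authors were RPKM per gene, per the file headers. STAR and the genome build mm10 are named in the submitters' processing notes. The read counter and its annotation are not given in the sources used here. All 6 columns of values were used.

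Read depth was recovered from the smallest steps of low RPKM in genes that have 1 transcript in GENCODE M21. At the depths found, 93.4% to 95.3% of such values came within 0.1 of whole reads (20% if values were spread evenly). PCR copies may be among these reads, and where they are the true error exceeds counting error. The share of such copies was not measured.

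Tests used limma 3.58.1 in R 4.3.3 (lmFit, then eBayes with its trend option) on log2(RPKM + 1), where the mean RPKM reached 1, two-sided, with no covariate and no pairing, and with Benjamini-Hochberg adjustment over all genes tested. The fit was tested on simulated data. For 15 genes with a date or blank as symbol, the symbol was looked up by Entrez ID. Substrate classes were assigned by family number, but not by it alone. Slc6a19 and Slc6a6 share a family and were placed with amino acids and with other organic solutes. Alternatives changed the pseudocount, the filter, the scaling, the variance model and the libraries used, and removed the trend with transcript length, which was chosen after seeing the data. The class of Slc2a4rg-ps and Slc4a1ap was also set after seeing the data.

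Genes named were those called, the 3 most abundant and the most different of each class and a preset group of nutrient transporters. The 2 genes on each side of the level threshold were also named. Most others are marked as chosen after their values were seen. Slc12a2, Slc12a4, Slc19a2, Slc25a32, Slc29a3, Slc31a1 and Slc43a3 carry no such mark, and they too were named outside these rules with their values known. Genes, lists and tests were chosen with earlier results of these data known. Plots were made with matplotlib 3.10.9 (Python 3.11.15).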

Additional observations from a re-analysis of the deposited data

How the results depend on the processing

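Of the 7 called genes, Slc6a19 kept its call in every alternative fit run and Slc28a2b in all but 1. The cause of each change below was not tested. The number of called genes was 2 to 4 when 1 library was left out (2 without replicate 1 of GFP-hi and without replicates 1 or 3 of GFP-lo), all of them lower in GFP-hi. It was 19 with array quality weights (10 higher, 9 lower) and 2 (0 higher, 2 lower) in the 4 libraries with low Hspa1a and Hspa1b. Over all 9351 genes tested, 230 were called higher and 139 lower. These became 203 and 187 with trimmed mean scaling, 238 and 254 with the length trend removed and 783 and 499 with array quality weights. With quantile normalization they were 220 and 175, with no trend 241 and 145 and with robust eBayes 248 and 156. They were 52 and 49 in the 4 libraries with low Hspa1a and Hspa1b. In the 4 libraries with more nasal receptor RNA they were 264 and 158. When 1 library was left out, 133 to 315 were called in all. Called ion transporters, among 38, numbered 1 with quantile normalization, 1 with trimmed mean scaling, 1 with no trend and 2 with robust eBayes. They numbered 6 with array quality weights, 2 in the 4 libraries with more nasal receptor RNA and 2 with the length trend removed. Without 1 library there were 0 to 1. Called mitochondrial carriers, among 37, numbered 1 in the 4 libraries with more nasal receptor RNA and 4 with array quality weights. Called nucleoside transporters numbered 1 to 1 without 1 library, 0 with low Hspa1a and Hspa1b, 1 with more nasal receptor RNA and 1 with the length trend removed. Called genes for other organic solutes numbered 0 to 2 without 1 library and 1 with low Hspa1a and Hspa1b. With a mean RPKM of at least 5, class medians were -0.0051 (ion, 20 genes left), 0.088 (mitochondrial, 20 genes) and 0.0089 (other organic, 14 genes). With trimmed mean scaling they were -0.058 (ion) and -0.078 (other organic), and with array quality weights -0.010 (ion), 0.010 (mitochondrial) and 0.0012 (nucleoside). They were -0.022 (other organic) with low Hspa1a and Hspa1b, and -0.0052 (ion) and 0.020 (nucleotide sugar) with more nasal receptor RNA. Without 1 library they ran from -0.060 to -0.013 (ion), 0.016 to 0.084 (mitochondrial), -0.089 to -0.032 (nucleotide sugar), -0.045 to -0.017 (other organic) and 0.013 to 0.080 (not a transporter). The sign turned in at least 1 alternative fit in 50 of the 141 genes, 0 of them called, with values of at most 0.12 in size with all libraries. The farthest from 0 was Slc19a2, -0.12 and 0.0046 with low Hspa1a and Hspa1b, and Slc15a2 (0.05) reached -0.66 with array quality weights. Of the genes named by rule, Slc7a6os was -0.00025 with median centring, -0.0090 with quantile normalization, -0.021 with trimmed mean scaling, -0.091 with array quality weights, -0.067 with low Hspa1a and Hspa1b, -0.13 with more nasal receptor RNA and -0.027 with the length trend removed. With trimmed mean scaling Slc44a2 was -0.0067, Slc2a3 -0.0089, Slc38a1 -0.00090 and Slc7a6 -0.014. Slc44a2 was -0.0027 with quantile normalization, Slc2a3 -0.0062 with low Hspa1a and Hspa1b, Slc3a2 -0.0046 with array quality weights and Slc35a4 0.020 with more nasal receptor RNA. Without 1 library Slc2a3 ran from -0.022 to 0.063, Slc2a4rg-ps from -0.023 to 0.12, Slc35a4 from -0.089 to 0.028, Slc38a1 from -0.0042 to 0.073, Slc38a2 from -0.15 to 0.029, Slc44a2 from -0.0086 to 0.070, Slc50a1 from -0.10 to 0.028, Slc7a5 from -0.026 to 0.16, Slc7a6 from -0.024 to 0.079 and Slc7a6os from -0.080 to 0.049. No paired analysis was run because the labels give no replicate numbers, and those used here follow the order of deposition. Whether libraries were paired is not given in the sources used here.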

Other observations

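Some solute carrier genes varied more between libraries than between GFP-hi and GFP-lo cells. Slc22a13, an organic anion transporter, had 1.67, 0.103 and 1.95 RPKM in GFP-hi and 0.111, 0.088 and 2.16 RPKM in GFP-lo libraries, so that 3 libraries were high and 3 were close to 0. Its log2 fold change was 0.40 (SE 0.484, limma adjusted p = 0.71), and its spread within the groups exceeded that of 99.8% of all genes tested. Nasal receptor genes (41 listed) had a median RPKM of 0.292, 0.037 and 0.419 in GFP-hi and 0.038, 0.263 and 0.583 in GFP-lo libraries, and their part in the Slc22a13 values was not tested. Slc15a2, a peptide transporter, had 0.993, 4.19 and 0.292 RPKM in GFP-hi and 1.20, 2.72 and 0.462 RPKM in GFP-lo libraries. In both groups replicate 2 was the highest and replicate 3 the lowest. Slc25a38, the mitochondrial glycine carrier needed for heme synthesis, had 11.4, 16.1 and 11.9 RPKM against 11.9, 14.9 and 11.8 RPKM, again with replicate 2 the highest. In 14 of the 141 genes (9.93%) both replicate 2 libraries lay above the other 4, as in 9.35% of all genes tested, and in 9 (6.38%) they lay below, as in 8.21%. These 3 genes were chosen after their values were seen.

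Removing the level threshold added no call among solute carriers, although log2 changes of RPKM + 1 understate the change of genes with low RPKM. Raising the threshold to a mean RPKM of 5 kept the 7 calls. It left 20 ion, 20 mitochondrial and 14 other organic genes, so their class medians moved although the log2 change of each gene stayed the same. Just inside the threshold of 1 RPKM lay Slc22a13 (1.01 RPKM) and Slc25a37 (1.03 RPKM), and just outside it Slc16a10 (0.972 RPKM) and Slc43a1 (0.938 RPKM). In a fit with no filter on low values, none of the 30 genes under the threshold was called. The closest were Slc43a3, a purine base transporter, with 0.711, 0.614 and 0.740 RPKM in GFP-hi and 0.292, 0.358 and 0.262 RPKM in GFP-lo libraries (log2 fold change 0.37, limma adjusted p = 0.061), and Slc43a1, a large neutral amino acid transporter, with 1.14, 1.16 and 1.14 RPKM against 0.785, 0.719 and 0.686 RPKM (0.31, limma adjusted p = 0.065). In both genes all GFP-hi values were above the GFP-lo values.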
